A study of Homo sapiens and Mus musculus with 100 samples.

Results

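The genes described here are 44 genes of the lysosome and of the proton pump that acidifies it, chosen by symbol from a fixed list of names: 10 proteases, 9 glycosidases and sulfatase, 5 proteins of lipid and sphingolipid handling, 4 membrane proteins, 2 transcription factors and 14 pump genes. The list was drawn up with earlier results of these data known, so shares of members set beside those of all genes are descriptive only. All 44 were found among the 28035 gene symbols of each human table. In mouse, 43 were found among 24940, and no row carried the mouse spelling of ATP6V0E1. Messenger RNA was measured by sequencing the 3′ ends of transcripts in cells or mice kept with or without vitamin B2 (riboflavin, from which cells make flavin cofactors). The question addressed by the series is how far the response runs through AhR, the aryl hydrocarbon receptor, a transcription factor activated by small ligands.

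Lysosomes are membrane-bound organelles in which acid hydrolases break down proteins, glycans and lipids delivered by endocytosis and autophagy. Their acidity is kept by the vacuolar ATPase, a rotary pump built of a soluble V1 sector, which hydrolyses ATP, and a membrane V0 sector, which carries protons. Many lysosomal genes have been described as holding a palindromic motif named CLEAR in their promoters, which is bound by the transcription factors TFEB and TFE3. In liver, lysosomes degrade lipoprotein cholesterol, glycogen and whole organelles.

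HepG2, a human liver tumour line, was sampled at days 3, 6, 9 and 12 in control medium or without vitamin B2. At day 12 it was also sampled in 4 further designs, each with its own table: an AhR inhibitor (experiment EX2), an IDO/TDO inhibitor (EX3, against enzymes that convert tryptophan towards kynurenine), a guide RNA that was a control or aimed at AhR, and a treatment labelled Kyn against DMSO, each with and without AhR inhibitor (EX4, in which no group was labelled as deprived). Caco-2, a colon tumour line, was sampled at day 9. The mouse groups were AhR-flox hepatocytes with Ad-Cont or Ad-Cre, in control or deprived condition, and livers of mice on a control or a B2 deficient diet, all labelled 4 weeks. All hepatocyte groups therefore carried the floxed AhR allele, the cells with Ad-Cont included. The labels do not give the animals' genotype beyond this or their sex, the identity of the inhibitors, whether the guide RNA cells are 1 clone, or whether replicates are separate cultures. The headers give the AhR inhibitor at 10 uM in EX2, and no other dose is given in the sources used here. Each group held 3 libraries, except the liver groups, with 5 samples labelled and 4 columns analysed here in each.

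Depth ran from 4050000 to 19644000 reads per library, as recovered from the values. Hepatocyte genes such as ALB and APOB were detected in every HepG2 group. In the deprived HepG2 cells, however, the summed level of 8 hepatocyte markers was far below that in the controls, at 8400 to 8809 TPM against 27570 to 28580 TPM on day 12, and 7 of the 8 were lower in every deprived library. CYP1A1, a target gene of AhR that serves as a check of the labels, measured 23.0, 24.0 and 24.4 TPM in deprived cells and 4.15, 3.70 and 2.87 TPM in control cells on day 12. With the AhR guide it stayed between 1.16 and 2.22 TPM in deprived cells, against 32.0 to 36.2 TPM with the control guide. AHR itself was not lower with the AhR guide (4.48 to 4.88 TPM against 4.37 to 6.51 TPM in control medium), a level that checks nothing where a guide edit leaves the 3′ end in place. In Ad-Cre hepatocytes Ahr measured 6.78 to 8.29 TPM, against 9.32 to 10.7 TPM with Ad-Cont. This level does not show how much AhR function was lost there. In EX2, 1 control library given the AhR inhibitor (replicate 3) was unlike its group, with a mean chi-square per gene of 29.3 and 27.6 to the other libraries, which differed by 7.81 from each other.

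The promoters of the members were compared with those of all genes because TFEB and TFE3 are members themselves. RefSeq promoter sequences (GRCh38.p14, 250 bases before to 50 after a transcript start) matched 31 of the 44 members, and both strands were searched. These 31 members had 47 such windows, and a gene was counted if any of its windows held the letters. Genes with more windows thus had more chances, and the shares were not adjusted for this. The letters TCACGTGA, the core of CLEAR, occurred in 5 of these 31 genes (16.1%) and in 1.18% of all 27305 genes in the set. The wider motif, with a G before and a C after these letters, occurred in 2 members and in 0.421% of genes, and the inner CACGTG in 11 members (35.5%) and 8.77% of genes. The letters GCGTG, the core of AhR response elements, occurred in 21 members (67.7%) and in 40.6% of genes, and the longer TNGCGTG in 5 members (16.1%) and 6.69% of genes. LIPA was counted for GCGTG only through a window at chr10:89414630-89414929, outside the span of the transcript measured here. A match is a run of letters and not a measured binding site. The stretches that hold TCACGTGA, each ending before the transcript start and with the motif in capitals, are shown because this motif is the known binding site of the 2 transcription factors among the members. They lie at chr20:45891283-45891334 (CTSA, plus strand), chr17:80101477-80101580 (GAA, plus strand), chr13:113297184-113297238 (LAMP1, plus strand), chr19:7522556-7522623 (MCOLN1, plus strand) and chr16:67481184-67481243 (ATP6V0D1, minus strand).
CTSA: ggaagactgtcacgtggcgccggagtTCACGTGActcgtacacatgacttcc
GAA: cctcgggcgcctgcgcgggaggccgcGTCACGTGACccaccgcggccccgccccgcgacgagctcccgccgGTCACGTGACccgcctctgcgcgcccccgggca
LAMP1: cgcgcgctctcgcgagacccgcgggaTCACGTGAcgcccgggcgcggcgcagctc
MCOLN1: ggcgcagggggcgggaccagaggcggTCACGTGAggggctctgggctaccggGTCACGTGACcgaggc
ATP6V0D1: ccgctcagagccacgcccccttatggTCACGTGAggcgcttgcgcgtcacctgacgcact
In CTSA the motif began 26 bases before the start, in LAMP1 29 and in ATP6V0D1 60. GAA and MCOLN1 each held 2 copies, the first beginning 78 and 42 bases before the start, and LAMP1 held a second copy outside the stretch shown.

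The first comparison asked when and how the members responded to B2 deprivation in HepG2. By day 12 the deprived cells had higher levels of all 12 listed V0 and V1 pump subunits and of most proteases and glycosidases. Acid lipase (LIPA) and 6 other members were lower. Levels are in TPM, transcript abundance scaled within each library, and fold changes are on log2(TPM + 1), given with their standard error (SE). A gene passed the test at an adjusted p under 0.05 (limma, Benjamini-Hochberg over all genes of the table). Since the labels do not call replicates separate cultures, each p reflects library-to-library spread, which may be technical. Of 41 members tested on day 12, 28 rose and 7 fell, which is 85.4% against 52.4% of all genes tested. For rises alone the shares were 68.3% of members and 34% of all genes, and 18.4% of all genes fell. The median log2 fold change was 0.49 for the members and 0.096 for all genes. After quantile normalization 25 rose and 8 fell.

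The response built up with time. On day 3 only 4 members passed, 2 in each direction, against 4.74% of all genes (2.74% upwards and 2% downwards), and the median was 0.014 for members and 0.015 for all genes. CTSB, a cysteine protease, was already 0.30 ± 0.05 higher on day 3 and LIPA 0.38 ± 0.08 lower. The other pair, CTSL (0.25 ± 0.07) and CTSC (-0.25 ± 0.07), depended on single libraries. CTSL lost its call whichever of the 6 libraries was left out, and CTSC passed only when the library left out was replicate 3 of the controls. The count of 4 was 3 in that case and 2 in the other 5. On day 6, 24 members rose and 3 fell (33% of all genes passed, 19% upwards and 14% downwards), and on day 9, 23 rose and 7 fell (49.1% of all genes, 29.4% upwards and 19.7% downwards). CTSB led on day 6, with 0.98 ± 0.05, followed by HEXA and SGSH (0.59 each), ASAH1 (0.58), CTSD (0.57), LAMP1 and ATP6V1E1 (0.55 each) and ATP6V0E1 (0.53). By day 9 the lead had passed to CTSA (1.20 ± 0.08), ATP6V0D1 and ASAH1 (1.04 each), ATP6V1E1 (1.00), ATP6V0E2 (0.89), CTSH (0.82), ATP6V0C (0.78) and CTSB (0.76). The members that fell on day 6 were LIPA (-0.62), GUSB (-0.41) and CTSC (-0.34), and on day 9 these, with LIPA at -0.82, were joined by GLB1 (-0.43), PSAP (-0.38), MAN2B1 (-0.35) and NAGLU (-0.27). After quantile normalization the split on day 9 was 21 higher and 10 lower. MAN2B1 did not pass on day 9 without replicate 1 or 2 of either group, nor NAGLU without replicate 1 or 3 of the controls or replicate 1 of the deprived cells.

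Among the members, the listed pump subunits showed the most uniform change. All 5 V0 and all 7 V1 subunits on the list rose on day 12, with medians of 0.75 and 0.67. Pump subunits outside the list moved in both directions on that day, as given further below. ATP6V0E2 (chr7:149872968-149880712 in hg38, plus strand), a small subunit of the membrane sector, measured 61.6, 57.7 and 63.1 TPM in control cells on day 3 and 16.3, 12.6 and 15.2 TPM on day 12. In deprived cells it measured 53.4, 56.6 and 61.6 TPM on day 3 and 41.5, 40.9 and 37.8 TPM on day 12. The groups overlapped on day 3, and on day 12 every deprived library was far above every control, a log2 fold change of 1.39 ± 0.09 (adjusted p = 1.4e-11). ATP6V1E1 (chr22:17592136-17628822, minus strand), which forms part of the stalk that holds the V1 sector in place, fell in controls from 63.0, 76.5 and 73.6 TPM on day 3 to 29.0, 33.2 and 26.8 TPM on day 12. In deprived cells it was 77.7, 79.2 and 77.7 TPM on day 3 and 70.3, 80.8 and 77.5 TPM on day 12, so that its level was held while that of the controls dropped (1.34 ± 0.08, adjusted p = 4.2e-12). The other listed subunits rose by between 0.26 (ATP6V1A, the catalytic subunit) and 1.00 ± 0.11 (ATP6V0D1, which joins the rotor to the membrane ring). Of the accessory proteins, ATP6AP2 rose by 0.14 and ATP6AP1 fell by 0.30 ± 0.08, and the rise of ATP6AP2 was at -0.02 after quantile normalization.

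Among the hydrolases, CTSA, a carboxypeptidase that also protects NEU1 and beta-galactosidase from degradation, moved most. CTSA (chr20:45890144-45898819, plus strand) measured 19.4, 14.2 and 17.4 TPM in control and 43.3, 44.6 and 42.0 TPM in deprived cells on day 12 (1.31 ± 0.08, adjusted p = 1.2e-11). Its partner NEU1 (chr6:31859052-31862932, minus strand), a sialidase, measured 51.9, 48.8 and 54.2 TPM in control and 105, 113 and 113 TPM in deprived cells (1.08 ± 0.05, adjusted p = 4.3e-14). The groups were apart for both. On day 3 CTSA had been at 62.8 to 72.8 TPM in controls and 64.2 to 69.8 TPM in deprived cells, and NEU1 at 218 to 231 TPM and 214 to 219 TPM, so both groups overlapped. The 3′ end of CTSA lies beside PLTP on the opposite strand, and whether the counting used strand is not given, so reads of that pair may be shared. The same limit holds for GLA and SGSH, which also overlap a gene on the opposite strand, whereas NPC2 overlaps MIR4709 on its own strand. In mouse it holds for Ctsa, Ctsb, Ctsz and Sgsh, and Atp6v0c overlaps Atp6v0c-ps2 on its own strand. Further risers were CTSH (1.04 ± 0.07), an aminopeptidase, ASAH1 (1.04 ± 0.07), the acid ceramidase, and HEXA (0.91 ± 0.06), a subunit of beta-hexosaminidase. CTSD, the main aspartic protease, did not pass on day 12 (0.12) although it had on days 6 and 9.

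Most members that fell on day 12 were glycosidases or enzymes of lipid breakdown. LIPA (chr10:89213569-89252039, minus strand), which frees cholesterol from the esters of lipoproteins, was lower at every time point tested. It measured 31.3, 31.6 and 31.1 TPM in control and 22.0, 25.2 and 24.6 TPM in deprived cells on day 3, and 28.6, 26.7 and 24.2 TPM against 19.3, 18.2 and 20.3 TPM on day 12 (-0.44 ± 0.08, adjusted p = 8.3e-05). The groups were apart on both days. GLB1 (chr3:32996608-33097230, minus strand), the beta-galactosidase, went up in controls from 30.8, 32.7 and 33.5 TPM on day 3 to 47.8, 46.6 and 46.6 TPM on day 12, while deprived cells ended at 34.8, 30.0 and 34.0 TPM (-0.50 ± 0.06, adjusted p = 7.2e-07). GUSB (chr7:65960686-65982314, minus strand), the beta-glucuronidase, measured 5.62, 5.19 and 6.45 TPM in control and 3.77, 3.27 and 4.01 TPM in deprived cells (-0.53 ± 0.08). MAN2B1 (chr19:12646508-12666777, minus strand), the acid alpha-mannosidase, measured 4.22, 3.66 and 3.65 TPM against 2.00, 2.81 and 2.41 TPM (-0.51 ± 0.13, adjusted p = 0.0028). For all 4 genes no library of the deprived group reached the lowest control on day 12. CTSC (-0.27 ± 0.07) and PSAP (-0.23 ± 0.05), the precursor of the saposins that help hydrolases reach sphingolipids, also fell.

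**Figure D1:**
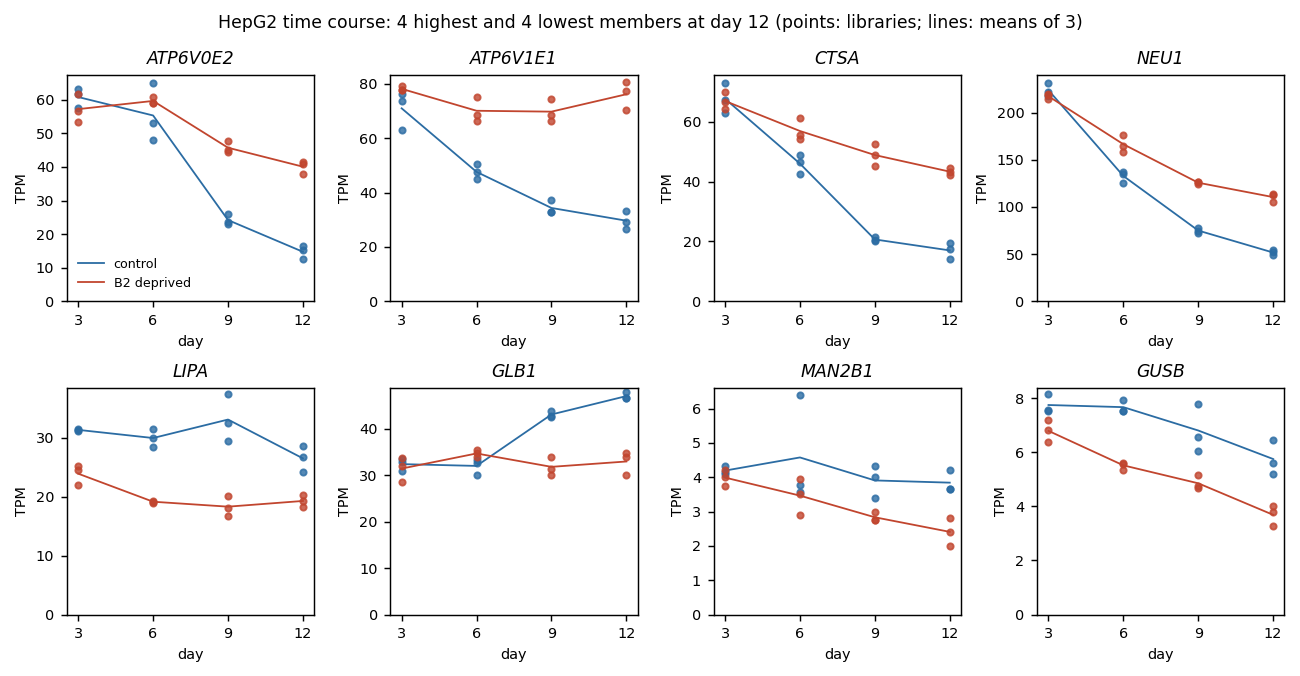
TPM (vertical axis, from 0) against day (horizontal axis) for the 4 highest and 4 lowest members of day 12 in HepG2. Points are libraries and lines join the means of 3, blue for control and red for B2 deprived. In the upper row the control lines drop while the deprived lines stay higher, and LIPA is lower in deprived cells on all 4 days.

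Among the membrane proteins, LAMP1 rose on day 12 by 0.86 and the tetraspanin CD63 by 0.29, whereas LAMP2 was at -0.07 and did not pass. MCOLN1, a calcium channel of the lysosome, was near the detection limit, at 0.28 to 0.35 TPM in control and 0.54 to 0.78 TPM in deprived cells on day 12 (0.35 ± 0.16, adjusted p = 0.066, not passed). The regulators differed from each other. TFE3 measured 6.28, 4.87 and 4.56 TPM in control and 7.78, 6.96 and 7.48 TPM in deprived cells on day 12, without overlap (0.44 ± 0.11, adjusted p = 0.0022). TFEB measured 4.38, 2.85 and 4.76 TPM against 3.39, 2.95 and 3.25 TPM, with overlapping groups (-0.23 ± 0.15, adjusted p = 0.22). Their activity is set largely by phosphorylation and location in the cell, which these data do not measure. The proteases CTSS, CTSZ and CTSF were below the filter in HepG2. CTSF was listed at 0 in most HepG2 libraries.

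Much of the difference on day 12 arose from a decline in the controls. Between days 3 and 12, 30 members fell and 5 rose in control cells (66.9% of all genes passed, 20.1% upwards and 46.8% downwards), with a median of -0.59 against -0.21 for all genes. In deprived cells over the same time 20 fell and 8 rose (49.7% of all genes, 14.4% upwards and 35.3% downwards), with a median of -0.18 against -0.12. NEU1 (-2.10 ± 0.05), ATP6V0E2 (-1.98), CTSA (-1.94), GLA (-1.72), ATP6V1D (-1.46), ATP6V0D1 (-1.45), ATP6V1E1 (-1.23) and ATP6V1B2 (-1.07) fell most in controls, whereas CTSD (0.93), LAMP2 (0.74), CTSB (0.58), GLB1 (0.53) and TFEB (0.42) rose. In deprived cells the largest falls were those of GLA (-1.41), NEU1 (-0.97), CTSL (-0.86), CTSC (-0.79), GUSB (-0.74), CD63 (-0.69), ATP6V1D (-0.65) and CTSA (-0.62). The members that rose there were CTSD (0.95), CTSB (0.79), CTSH (0.72), LAMP2 (0.48), ASAH1 (0.47), TFEB (0.46), ATP6AP2 (0.26) and GAA (0.24). The test of the difference itself, the deprivation effect on day 12 minus that on day 3, was higher for 23 members and lower for 4 (37.7% of all genes passed, 23.8% upwards and 13.9% downwards). ATP6V0E2 (1.48 ± 0.13), CTSA (1.32 ± 0.12) and ATP6V1E1 (1.19 ± 0.11) led, and GLB1 (-0.46), GUSB (-0.36) and PSAP (-0.27) were lowest. After quantile normalization, 22 members fell and 8 rose in controls, 15 fell and 10 rose in deprived cells, and the difference was higher for 18 and lower for 6. The median of all genes moved by over 0.1 in the controls between these scalings, from -0.21 to 0. CTSH and LIPA, both lower in controls over time, were at 0.09 and 0.03 after it. TFEB did not pass in controls without replicate 1 of day 3 or replicate 1 or 3 of day 12, nor in deprived cells without replicate 2 of day 3 or replicate 1 of day 12. GAA did not pass in deprived cells without replicate 1 of day 3 or replicate 1 or 2 of day 12. For GUSB the difference did not pass without deprived replicate 1 of day 3, control replicate 3 of day 12 or deprived replicate 2 of day 12. Passage, density and medium age at each day are not given in the labels and cannot be told apart from time.

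The summed TPM of the 44 members was also higher in deprived cells. In controls their share of all listed TPM was 0.873%, 0.866% and 0.900% on day 3 and 0.550%, 0.517% and 0.525% on day 12. In deprived cells it was 0.918%, 0.918% and 0.927% on day 3 and 0.752%, 0.766% and 0.733% on day 12. The deprived libraries were above the controls of the same day throughout. Over these days the hepatocyte marker sum in controls went from between 7706 and 7748 TPM to between 27570 and 28580 TPM, and in deprived cells lay at 6688 to 9294 TPM. Such abundant transcripts take up part of the TPM scale. Their part in the members' levels was not tested beyond the other scalings given here. On day 12, 1 marker tested of stellate cells rose (ACTA2, 1.97), as did 1 of endothelium (LYVE1, 0.80). Of 3 cholangiocyte markers tested KRT19 (3.54) and EPCAM (0.33) rose and SOX9 fell (-0.33). Of the macrophage markers only CD68, itself a lysosomal protein, passed (0.97), and others such as MARCO and CD5L were at or near 0.

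**Figure D2:**
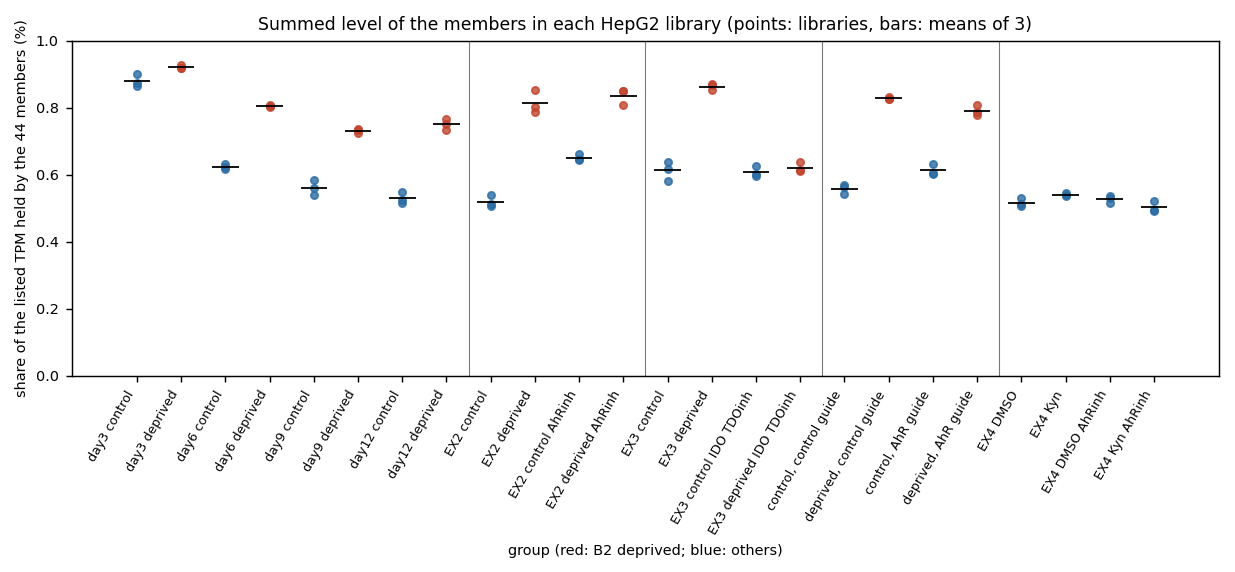
Share of the listed TPM held by the 44 members (percent, from 0 to 1, vertical axis) in each HepG2 group (horizontal axis). Points are libraries and bars means of 3, red for B2 deprived and blue for other groups, with grey lines between tables. Deprived groups lie above their controls in every table except with the IDO/TDO inhibitor, where the libraries lie at 0.612% to 0.637% against 0.596% to 0.625%.

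Lysosomal and autophagy genes outside the 44 moved in both directions on day 12, to be read against the 34% of all genes that rose and the 18.4% that fell. Of 23 other lysosomal hydrolases tested, 9 rose and 5 fell (median 0.14), among them GM2A (1.44), the activator that presents gangliosides to HEXA, and PLA2G15 (0.69) among the risers, and CTSK (-0.51) and HGSNAT (-0.46) among the fallers. Of 20 other membrane proteins 9 rose and 3 fell (median 0.18), and of 6 other pump subunits 2 rose, ATP6V1G1 (0.69) and ATP6V0A1 (0.48), and 2 fell, ATP6V1B1 (-0.54) and ATP6V1C2 (-0.42). Of 15 genes for delivery to the lysosome 9 rose and 2 fell, with GNPTG (0.90) and M6PR (0.84), both of the mannose 6-phosphate route, at the top. Of 19 genes of nutrient sensing at the lysosome 7 rose and 2 fell, led by RRAGD (0.84) and LAMTOR1 (0.75). Of 24 autophagy genes 12 rose and 5 fell, led by the cargo receptors SQSTM1 (1.26) and TAX1BP1 (0.75), while the kinase ULK1 (-0.96) and its partner RB1CC1 (-0.84) fell.

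The second comparison asked whether blocking IDO and TDO, the enzymes that start kynurenine synthesis from tryptophan, changes the response. Without the inhibitor, deprivation in EX3 raised 30 of 41 members and lowered 3 (67.9% of all genes passed, 53.6% upwards and 14.3% downwards), with medians of 0.65 for members and 0.30 for all genes. With the inhibitor, 0 members passed in either direction, against 1.39% of all genes (0.854% upwards and 0.532% downwards), and the median was 0.01. At an unadjusted p under 0.05 there were 5 members, and limma's voom on recovered reads called 3. ATP6V0E2 measured 19.5, 17.9 and 22.7 TPM in control and 64.4, 65.6 and 67.5 TPM in deprived cells without inhibitor, and 20.8, 18.5 and 19.7 TPM against 17.2, 14.2 and 21.1 TPM with it. The deprived libraries stood far above their controls in the first pair and overlapped them in the second. The effect without inhibitor was 1.67 ± 0.11.

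ATP6V1E1 behaved alike, with 24.4, 32.3 and 32.6 TPM in control and 83.6, 87.2 and 82.6 TPM in deprived cells, but 33.0, 33.5 and 35.6 TPM against 33.3, 35.8 and 31.1 TPM with inhibitor. ASAH1, HEXA and CTSA rose by 1.44, 1.33 and 1.34 without inhibitor, followed by LAMP1 (1.09), ATP6V0D1 (1.06) and CTSH (1.03). In the other direction LIPA measured 26.2, 28.4 and 29.2 TPM in control and 15.7, 17.8 and 16.8 TPM in deprived cells (-0.70 ± 0.07), with no overlap. With inhibitor it was 27.4, 29.2 and 28.0 TPM against 25.7, 27.3 and 27.4 TPM. MAN2B1, the acid mannosidase, measured 7.19, 7.14 and 8.81 TPM in control and 5.01, 4.63 and 4.90 TPM in deprived cells (-0.57 ± 0.10), and 6.97, 8.11 and 6.84 TPM against 8.46, 7.05 and 7.06 TPM with inhibitor. These groups were apart without the inhibitor and overlapped with it. GLB1 fell by 0.31 without inhibitor. TFE3 rose without inhibitor (0.55 ± 0.10) and TFEB did not pass (0.17). MCOLN1 was also called higher (0.65 ± 0.14), at means of 0.42 TPM in control and 1.24 TPM in deprived cells. It was near the detection limit and met the filter only through the deprived group without inhibitor, so its call carries little weight.

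The difference between these effects was tested directly. It was lower for 31 members and higher for 3 (53.7% of all genes passed, 12.2% upwards and 41.5% downwards), led by ATP6V0E2 (-1.85 ± 0.16), CTSA (-1.58 ± 0.10) and ATP6V1E1 (-1.51 ± 0.13) and, upwards, LIPA (0.64 ± 0.10), MAN2B1 (0.61) and GLB1 (0.37). All 12 listed pump subunits of V0 and V1 were among the 31. In deprived cells alone the inhibitor lowered 31 members and raised 4 (65.7% of all genes, 16.1% upwards and 49.6% downwards). The largest falls were ATP6V0E2 (-1.87), CTSA (-1.58), ASAH1 (-1.51), ATP6V1E1 (-1.31), HEXA (-1.20), CTSH (-1.15), SGSH (-1.08) and LAMP1 (-1.05), and the rises LIPA (0.65), MAN2B1 (0.54), GLB1 (0.35) and PSAP (0.15). In control medium the inhibitor changed 0 members (0.00872% of all genes passed, 2 members at an unadjusted p under 0.05, 0 by voom). The hepatocyte marker sum moved with these values, at 8531 to 8775 TPM in deprived cells without inhibitor and 25400 to 26370 TPM with it. Its part in the result was not tested. After quantile normalization 24 members rose and 9 fell without inhibitor, and the test of the difference called 22 lower and 8 higher. In deprived cells the inhibitor then lowered 26 and raised 9, with ATP6AP2 at 0.02 in place of -0.23. The median of all genes was 0.30 before and 0.02 after that scaling. After median scaling ATP6AP2, NPC2, CTSD, CD63 and ATP6V0E1 had the opposite sign in the deprivation effect, with values from -0.15 to -0.01. CTSD passed there in the opposite direction (-0.15, adjusted p = 0.025). In the difference of effects CTSD and CD63 likewise changed sign, to 0.05 and 0.03. PSAP passed in deprived cells only with all libraries or without replicate 1 of the group without inhibitor.

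**Figure D3:**
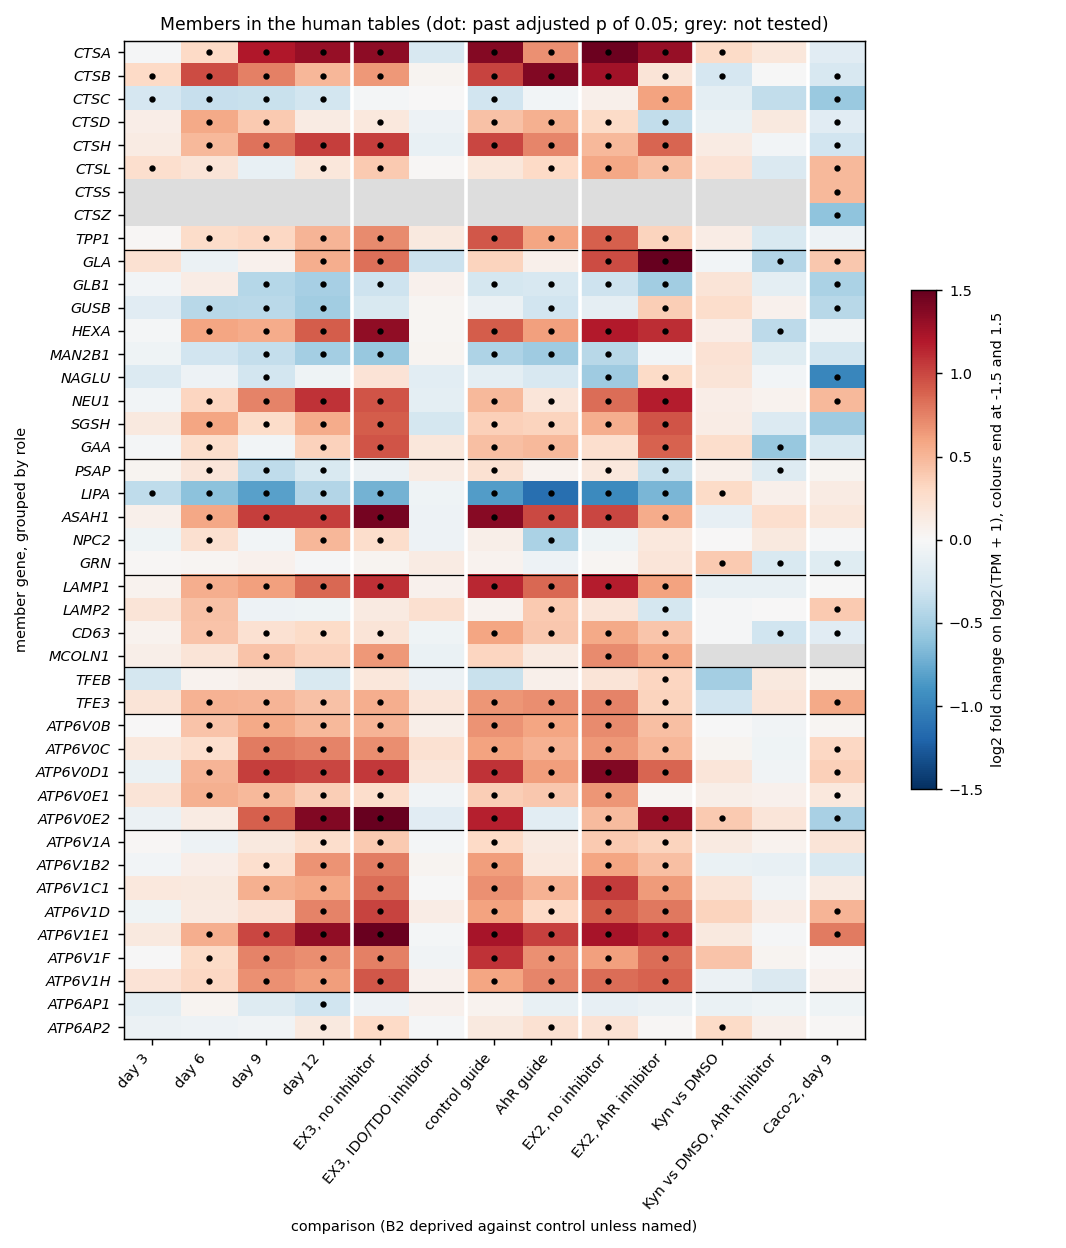
Log2 fold change on log2(TPM + 1) of the 43 members tested in a human table (rows, grouped by role) in 13 comparisons (columns), coloured from blue (-1.5) to red (1.5). Dots mark an adjusted p under 0.05 and grey cells were not tested. The column for deprivation with the IDO/TDO inhibitor has 0 dots. In the other deprivation columns of HepG2 from day 9, the rows of the V0 and V1 sectors are red, with 2 exceptions. These are ATP6V0E2 with the AhR guide and ATP6V0E1 with the AhR inhibitor (means of 241 TPM in control and 247 TPM in deprived cells).

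The guide RNA experiment asked for the role of AhR itself. With the control guide, deprivation raised 26 members and lowered 4 (60.7% of all genes passed, 43.6% upwards and 17.1% downwards), and with the AhR guide it raised 25 and lowered 5 (53.2% of all genes, 37.6% upwards and 15.6% downwards). Medians were 0.45 and 0.34, against 0.20 and 0.15 for all genes. After quantile normalization the splits were 23 higher and 8 lower, and 20 higher and 9 lower. With the control guide the leading members were CTSA (1.37 ± 0.06), ASAH1 (1.36 ± 0.10), ATP6V1E1 (1.24), ATP6V0E2 (1.17), LAMP1 (1.13), ATP6V0D1 (1.08), ATP6V1F (1.08) and CTSB (1.01). With the AhR guide they were CTSB (1.39 ± 0.06), ATP6V1E1 (1.03), ASAH1 (0.99), LAMP1 (0.86), ATP6V1H (0.74), CTSH (0.73), TFE3 (0.70) and ATP6V1F (0.68). LIPA was the lowest with either, at -0.84 ± 0.08 and -1.13 ± 0.08. MAN2B1 (-0.46), CTSC (-0.29) and GLB1 (-0.27) also fell with the control guide, and MAN2B1 (-0.53), NPC2 (-0.47), GUSB (-0.28) and GLB1 (-0.24) with the AhR guide. TFE3 rose by 0.67 ± 0.09 with the control guide. TFEB (-0.34 and 0.07) and MCOLN1 (0.32 and 0.13) passed with neither guide. CTSC with the control guide did not pass without replicate 1 or 3 of the controls or replicate 1 or 2 of the deprived cells. GUSB with the AhR guide did not pass without replicate 1 or 3 of the controls or replicate 2 or 3 of the deprived cells.

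The difference between the guides passed for 7 members, 6 lower and 1 higher with the AhR guide (14.4% of all genes passed, 6.16% upwards and 8.23% downwards). ATP6V0E2 differed most (-1.33 ± 0.13, adjusted p = 2.0e-05). It measured 20.4, 20.3 and 26.9 TPM in control and 50.4, 52.4 and 51.6 TPM in deprived cells with the control guide. With the AhR guide it was already at 68.8, 62.7 and 60.8 TPM in control medium and was at 59.3, 55.3 and 56.7 TPM in deprived cells (-0.16, not passed). CTSA showed part of this: 23.5, 22.8 and 25.9 TPM in control and 59.1, 66.3 and 66.4 TPM in deprived cells with the control guide, and 42.4, 38.4 and 40.0 TPM against 65.0, 64.8 and 65.6 TPM with the AhR guide. The levels in deprived cells overlapped, and those in control medium did not (difference of effects -0.69 ± 0.09). NPC2, a carrier of cholesterol in the lysosome, differed by -0.56 ± 0.08, from 230 to 241 TPM in control medium with the AhR guide and 143 to 152 TPM with the control guide. The reverse held for CTSB, with 135, 141 and 114 TPM in control medium with the control guide against 70.8, 73.4 and 72.0 TPM with the AhR guide. In deprived cells CTSB was at 265, 260 and 261 TPM against 185, 192 and 193 TPM, and its deprivation effect was 0.38 ± 0.09 larger with the AhR guide. The others were ATP6V1B2 (-0.47), ATP6V1F (-0.40) and LAMP1 (-0.28). Voom on recovered reads called 22 members in place of 7, of which 20 were lower. After quantile normalization 5 were lower and 2 higher.

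In control medium the AhR guide alone raised 18 members and lowered 4 (36.7% of all genes passed, 23.3% upwards and 13.4% downwards), although no B2 was withheld. ATP6V0E2 (1.48 ± 0.09), GLA (0.81), NEU1 (0.76), CTSA (0.72), NPC2 (0.67), ATP6V0D1 (0.52), ATP6V1F (0.46) and ATP6V1B2 (0.43) rose most, while CTSB (-0.84), LAMP2 (-0.33), CTSD (-0.23) and PSAP (-0.16) fell. After quantile normalization the counts were 12 and 4. In deprived cells only 7 members differed between guides (12% of all genes, 7.53% upwards and 4.48% downwards), namely TFEB (0.65 ± 0.16), GLA (0.54), CTSC (0.52) and NEU1 (0.45) upwards and CTSB (-0.46), TPP1 (-0.39) and PSAP (-0.33) downwards, or 4 upwards and 5 downwards after quantile normalization. TFEB was at 1.72 to 2.07 TPM with the control guide and 3.04 to 3.96 TPM with the AhR guide. It did not pass without replicate 1 or 3 of the control guide or replicate 1 of the AhR guide. GLA passed there only when the library left out was replicate 3 of the control guide, and CTSC did not pass without replicate 2 of the control guide. In control medium PSAP did not pass without replicate 2 of the control guide or replicate 3 of the AhR guide. Hepatocyte markers summed to 21540 to 22790 TPM in control medium with the AhR guide and 26010 to 26700 TPM with the control guide. Their part in these differences was not tested. The labels name only a control and an AhR guide and do not say how many cell populations carried each. The guide and the history of its cells therefore cannot be told apart.

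**Figure D4:**
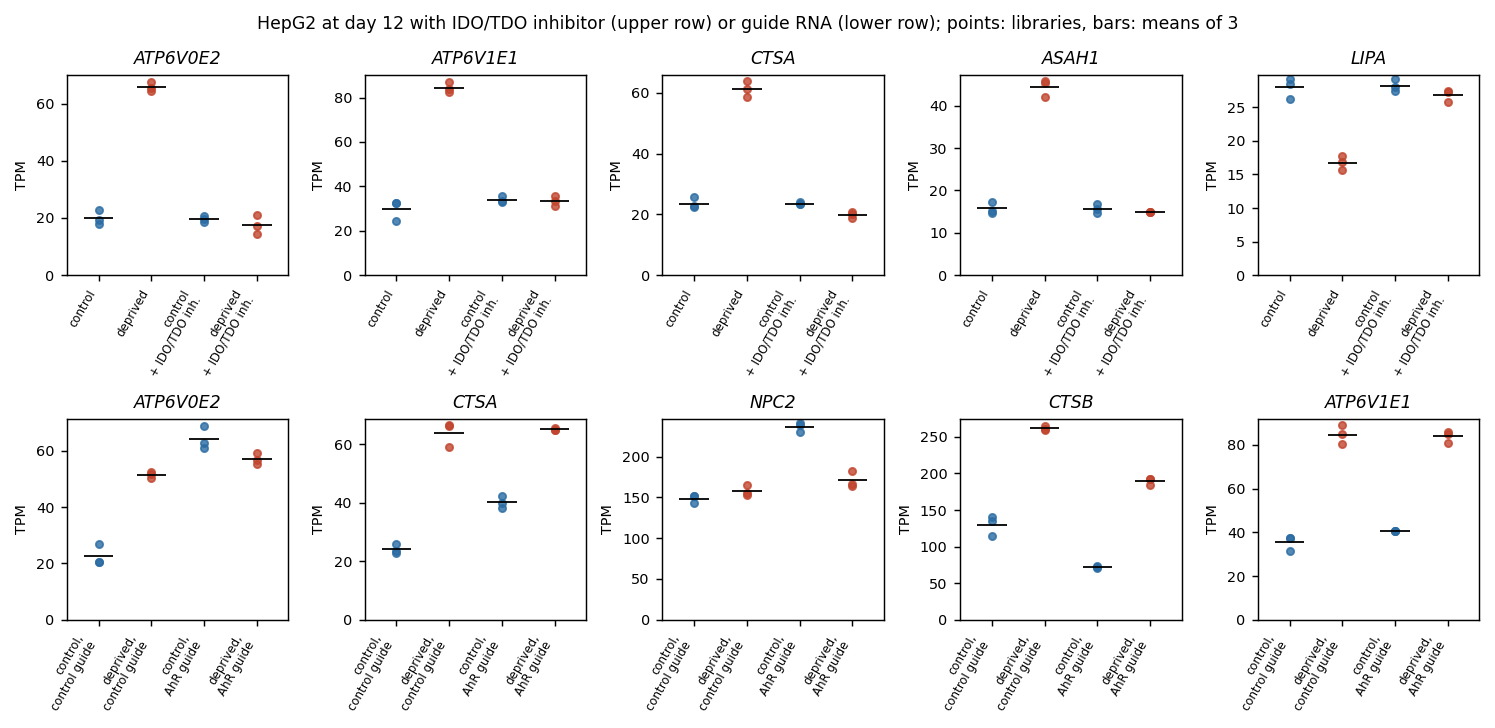
TPM (vertical axes, from 0) in each library of the IDO/TDO inhibitor experiment (upper row) and the guide RNA experiment (lower row). Points are libraries and bars means of 3, blue for control and red for B2 deprived. In the upper row the deprived points return to the control level with inhibitor, and in the lower row ATP6V0E2 is at 60.8 to 68.8 TPM in control medium with the AhR guide.

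In the AhR inhibitor experiment (EX2), most members passed the test of deprivation both without and with the inhibitor, and the size of the effect differed for many of them. Without inhibitor 29 of 41 members rose and 4 fell (61.5% of all genes passed, 44.6% upwards and 16.9% downwards), and with it 30 rose and 5 fell (57.5% of all genes, 45.1% upwards and 12.4% downwards). Of these, 25 members rose and 2 fell in both. The medians were 0.58 and 0.45, against 0.23 and 0.24 for all genes. After quantile normalization the counts were 25 and 6 without inhibitor, and 21 and 6 with it. After median scaling they were 24 and 7, and 18 and 8. There ATP6AP2 (-0.01) and PSAP (-0.07) without inhibitor and CTSB (-0.06) with it had the opposite sign. The inhibitor held CYP1A1 at 1.33 to 1.82 TPM in deprived cells, against 14.3 to 15.2 TPM without. The headers place the libraries with inhibitor under another directory and date than those without, and name a sequencing run for the latter alone. The inhibitor and this batch cannot be told apart in the difference between the effects. Deprived and control libraries of each pair carried the same date.

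Without inhibitor CTSA measured 28.5, 23.7 and 21.7 TPM in control and 70.2, 69.4 and 68.5 TPM in deprived cells (1.47 ± 0.09), and with it 23.3, 21.4 and 21.1 TPM against 58.5, 58.2 and 51.0 TPM (1.31 ± 0.09). The groups were apart in both pairs. ATP6V0D1 (1.39), CTSB (1.26), ATP6V1E1 (1.24), HEXA (1.20), LAMP1 (1.17), ATP6V1C1 (1.05) and ASAH1 (1.00) followed without inhibitor. With it the leaders were GLA (1.54 ± 0.10), ATP6V0E2 (1.31), NEU1 (1.18), ATP6V1E1 (1.13), HEXA (1.11), SGSH (0.95) and GAA (0.88). GLA, the alpha-galactosidase A, was at 2.29, 2.02 and 2.15 TPM in control and 7.98, 7.94 and 8.61 TPM in deprived cells with inhibitor. LIPA fell from 38.4, 34.5 and 38.0 TPM to 20.9, 17.0 and 18.0 TPM (-0.96 ± 0.12), and with inhibitor it was 49.0, 42.8 and 33.1 TPM against 25.3, 23.5 and 26.7 TPM (-0.69 ± 0.12). NAGLU (-0.53), MAN2B1 (-0.41) and GLB1 (-0.31) fell too without inhibitor, and GLB1 (-0.52), CTSD (-0.37), PSAP (-0.33) and LAMP2 (-0.26) with it. TFE3 rose without and with inhibitor (0.75 and 0.33). TFEB was at 0.19 without inhibitor (not passed) and 0.32 with it (passed), a difference of 0.13 ± 0.16 that did not pass (adjusted p = 0.61). MCOLN1 was called higher in both (0.71 and 0.58), near the detection limit. Its means were 0.40 and 0.28 TPM in control cells and 1.27 and 0.92 TPM in deprived cells, without and with inhibitor. It met the filter only through deprived libraries, so these calls carry little weight.

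The difference of the effects passed for 18 members, 8 higher and 10 lower with inhibitor (22.5% of all genes, 12.9% upwards and 9.57% downwards). CTSB (-1.06 ± 0.10), CTSD (-0.65) and ATP6V0E1 (-0.62) were lowest, and ATP6V0E2 (0.83 ± 0.16), NAGLU (0.82) and GAA (0.63) highest. CTSB was at 86.5, 85.0 and 91.5 TPM in control and 227, 211 and 197 TPM in deprived cells without inhibitor, and at 97.4, 99.4 and 106 TPM against 118, 120 and 109 TPM with it. ATP6V0E2 was at 48.7, 38.6 and 36.7 TPM in controls without inhibitor and 20.4, 18.9 and 16.1 TPM with it, levels of libraries with different dates. Its means in deprived cells were 57.6 TPM without and 47.3 TPM with inhibitor. Day 12 controls of other designs had means of 20.0 TPM (EX3), 22.6 TPM (control guide) and 17.5 TPM (DMSO in EX4). The cause of the higher level in the EX2 controls without inhibitor was not tested. Without the library that stood apart, 36 members passed with inhibitor and 17 in the difference. Without replicate 2 of the deprived cells with inhibitor, LAMP2 did not pass in the first nor GAA in the second.

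Kyn, by the label's abbreviation, had little effect on the members. Against DMSO 5 of 40 members rose and 1 fell (11.7% of all genes passed, 6.11% upwards and 5.54% downwards). GRN, a secreted and lysosomal glycoprotein, measured 59.5, 57.4 and 56.9 TPM with DMSO and 69.4, 83.1 and 77.0 TPM with Kyn (0.39 ± 0.07, adjusted p = 0.0020), and CTSB 126, 118 and 129 TPM against 97.9, 103 and 112 TPM (-0.25 ± 0.06, adjusted p = 0.010). The groups were apart for both genes. ATP6V0E2 (0.39 ± 0.09), CTSA, LIPA and ATP6AP2 (0.29 each) also rose. The count was 3 without replicate 2 of DMSO or without replicate 1 of Kyn. ATP6V0E2 did not pass without either of these or replicate 3 of DMSO, and CTSA did not without replicate 2 of Kyn. LIPA did not pass without replicate 1 or 2 of DMSO or replicate 1 or 3 of Kyn, and ATP6AP2 passed only when replicate 3 of DMSO was the one left out. CYP1A1 was at 1.78 to 2.46 TPM with Kyn and 1.51 to 1.86 TPM with DMSO. These groups overlapped, so this level does not show whether Kyn activated AhR. The Kyn effect on CYP1A1 with AhR inhibitor minus that without was 0.51 ± 0.24 (adjusted p = 0.20 by limma, not passed). Whether the inhibitor blocked AhR in EX4 is thus not shown by this gene. Of 22 other lysosomal hydrolases 9 rose and none fell (median 0.32), led by SIAE (0.77) and FUCA1 (0.67). TFEB (-0.51 ± 0.19) and TFE3 (-0.29 ± 0.13) did not pass.

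With AhR inhibitor, Kyn lowered 6 members and raised 0 (10.8% of all genes, 1.74% upwards and 9.1% downwards): GAA (-0.57 ± 0.09), the acid alpha-glucosidase, GLA (-0.44), HEXA (-0.39), CD63 (-0.30), GRN (-0.23) and PSAP (-0.19). GAA measured 9.73, 8.84 and 8.86 TPM with DMSO and 5.89, 6.33 and 5.31 TPM with Kyn in the presence of the inhibitor, without overlap. Without inhibitor it had measured 8.18, 8.50 and 7.53 TPM against 10.8, 9.56 and 9.36 TPM. The difference of the Kyn effects was lower for 6 members and higher for 0 (8.94% of all genes, 2.11% upwards and 6.83% downwards), led by GAA (-0.84 ± 0.13, adjusted p = 0.0015), GRN (-0.62) and HEXA (-0.49). After quantile normalization the splits became 3 higher and 3 lower with inhibitor, and 3 higher and 2 lower for the difference. The count with inhibitor was 3 without replicate 1 or 2 of DMSO with inhibitor. The count for the difference was 2 without replicate 1 of DMSO with inhibitor, and 3 without replicate 2 or 3 of DMSO or replicate 2 of Kyn with inhibitor. GLA, GRN and PSAP each lost their call with inhibitor in 5 of the 6 cases. HEXA lost that of the difference without replicate 3 of DMSO or replicate 1 or 3 of DMSO with inhibitor. Among Kyn-treated cells the inhibitor lowered 15 members and raised 3 (21.9% of all genes, 4.36% upwards and 17.6% downwards), or 7 and 3 after quantile normalization. GAA (-0.67), GLA (-0.61), GRN (-0.55), CTSL (-0.50), SGSH (-0.47), MAN2B1 (-0.46), ATP6V1F (-0.43) and HEXA (-0.42) were lowest, and ASAH1 (0.49), CTSD (0.33) and CTSB (0.23) rose. SGSH did not pass without replicate 1 of Kyn or replicate 3 of Kyn with inhibitor, nor ATP6V1F without replicate 1 or 2 of either group. With DMSO the inhibitor changed 0 members (0% of all genes), with 1 at an unadjusted p under 0.05 and 0 by voom.

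In Caco-2 cells the members did not move in 1 direction. On day 9, 11 of 42 members rose and 11 fell (33.7% of all genes passed, 14.3% upwards and 19.5% downwards), with medians of 0.00 for members and -0.07 for all genes. ATP6V1E1 rose from 53.0, 48.2 and 48.4 TPM to 90.3, 84.8 and 83.3 TPM (0.78 ± 0.06, adjusted p = 1.2e-05), as in HepG2 with the groups apart. TFE3 (0.57 ± 0.13) was next, at 5.78, 8.14 and 7.28 TPM against 12.5, 10.4 and 9.94 TPM. ATP6V1D (0.51), CTSL, NEU1 and CTSS (0.49 each), GLA (0.41) and LAMP2 (0.39) also rose. NAGLU, which degrades heparan sulfate, fell most, from 4.34, 3.86 and 5.21 TPM to 2.30, 1.48 and 1.60 TPM (-0.97 ± 0.15). CTSZ, a carboxypeptidase below the filter in HepG2, fell from 44.5, 54.1 and 54.4 TPM to 36.9, 36.0 and 27.0 TPM (-0.61 ± 0.13), followed by CTSC (-0.56), ATP6V0E2 (-0.48), GLB1 (-0.47), GUSB (-0.41), CTSH (-0.29) and CTSB (-0.24). Thus ATP6V0E2, CTSH and CTSB fell here and rose in HepG2 on day 9, a difference between lines that was not tested because the tables were normalized separately. LIPA (0.12) and TFEB (0.04) did not pass. Enterocyte markers summed to 84.2 to 89.8 TPM in deprived and 139 to 147 TPM in control cells. Their part in the result was not tested. After median scaling the split was 11 higher and 7 lower. Without single libraries 3 calls were lost: CTSS without replicate 1 or 3 of the controls or replicate 1 or 2 of the deprived cells, GLA without replicate 3 of either group, and CTSH without replicate 3 of the deprived cells.

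In mouse hepatocytes the members changed little. With Ad-Cont, 3 of 43 members rose and 3 fell in the deprived condition (9.78% of all genes passed, 4.32% upwards and 5.46% downwards). Ctss, a protease best known from macrophages and other antigen-presenting cells, was at 10.7, 9.11 and 8.75 TPM in control and 5.49, 2.70 and 3.31 TPM in deprived cells (-1.16 ± 0.22, adjusted p = 0.0052). Ctsc was at 15.6, 16.8 and 16.6 TPM against 10.1, 10.2 and 10.1 TPM (-0.63 ± 0.08, adjusted p = 0.00025). Both groups were apart, as they were for Psap (-0.38 ± 0.07). Of 10 macrophage markers, 9 had lower means in deprived Ad-Cont cells, 8 of them in every library, with Cd14 at 53.9 to 59.7 TPM against 107 to 115 TPM. The summed level overlapped, at 129 to 211 TPM in deprived and 188 to 205 TPM in control cells, with Cd68 at 148 TPM in replicate 1 of the deprived cells. Stellate and fibroblast markers summed to 12.8 to 24.5 TPM in deprived and 34.7 to 41.0 TPM in control cells, and cholangiocyte markers to 59.0 to 103 TPM and 108 to 116 TPM, both without overlap. The part of other cells in the falls was not tested, and fewer cells of a type and less RNA per cell cannot be told apart in such bulk samples.

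Atp6v0b was at 532, 460 and 452 TPM in control and 657, 538 and 556 TPM in deprived cells (0.28 ± 0.08), with the groups apart only narrowly. Atp6v1e1 was at 292, 298 and 307 TPM against 368, 324 and 336 TPM (0.19 ± 0.06). Lamp2 rose by 0.17 ± 0.05. These 3 rises did not pass when only the groups compared entered the fit, or without replicate 2 or 3 of the controls or replicate 1 of the deprived cells. Without replicate 3 of the controls the count was 3. Lamp2 lost its call whichever of the 6 libraries was left out, and Atp6v1e1 passed only when replicate 2 of the deprived cells was the one left out. After quantile normalization 2 members rose and 4 fell. Tfeb (-0.02), Tfe3 (0.11) and Mcoln1 (0.09) did not pass. Atp6v0c, with group means of 0.55 to 0.95 TPM in these hepatocytes, was too near the detection limit to be read. With Ad-Cre 0 members passed (0.329% of all genes, 5 members at an unadjusted p under 0.05, 1 by voom), the largest shift being that of Ctsc (-0.30 ± 0.08, adjusted p = 0.18). The difference between Ad-Cre and Ad-Cont passed for 0 members (0.247% of all genes, 4 members unadjusted, 1 by voom). Between the viruses, 0 members differed in control medium (0.0247% of all genes, 1 member unadjusted, 0 by voom). In deprived cells only Psap passed, 0.36 ± 0.07 higher with Ad-Cre (1.03% of all genes, 0.51% upwards and 0.518% downwards). That count ranged from 0 to 3 when 1 library was left out, with 3 without replicate 1 of the deprived Ad-Cont cells and 0 without any of the other 5.

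In mouse liver 0 of 42 members passed with the B2 deficient diet (3.41% of all genes passed, 7 members at an unadjusted p under 0.05, 0 by voom). Fold changes lay between -0.38 (Atp6v0b) and 0.61 (Ctsl, adjusted p = 0.059). Ctsa was at 46.8, 39.9, 42.2 and 50.9 TPM in control and 45.5, 54.6, 43.4 and 48.3 TPM in deficient livers, and Atp6v1e1 at 80.5, 93.5, 95.4 and 86.5 TPM against 95.0, 96.8, 93.2 and 96.1 TPM. Both pairs of groups overlapped. Cyp1a1, the check of the labels used in HepG2, was at 0.152 to 0.356 TPM in deficient and 0.192 to 0.6 TPM in control livers. It did not rise with the deficient diet and was too near the detection limit to check the labels there. The count was 1 without control column 2 or deficient column 1, and 0 without any 1 of the others. Tfeb (-0.13), Tfe3 (0.19) and Mcoln1 (0.14) did not pass.

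**Figure D5:**
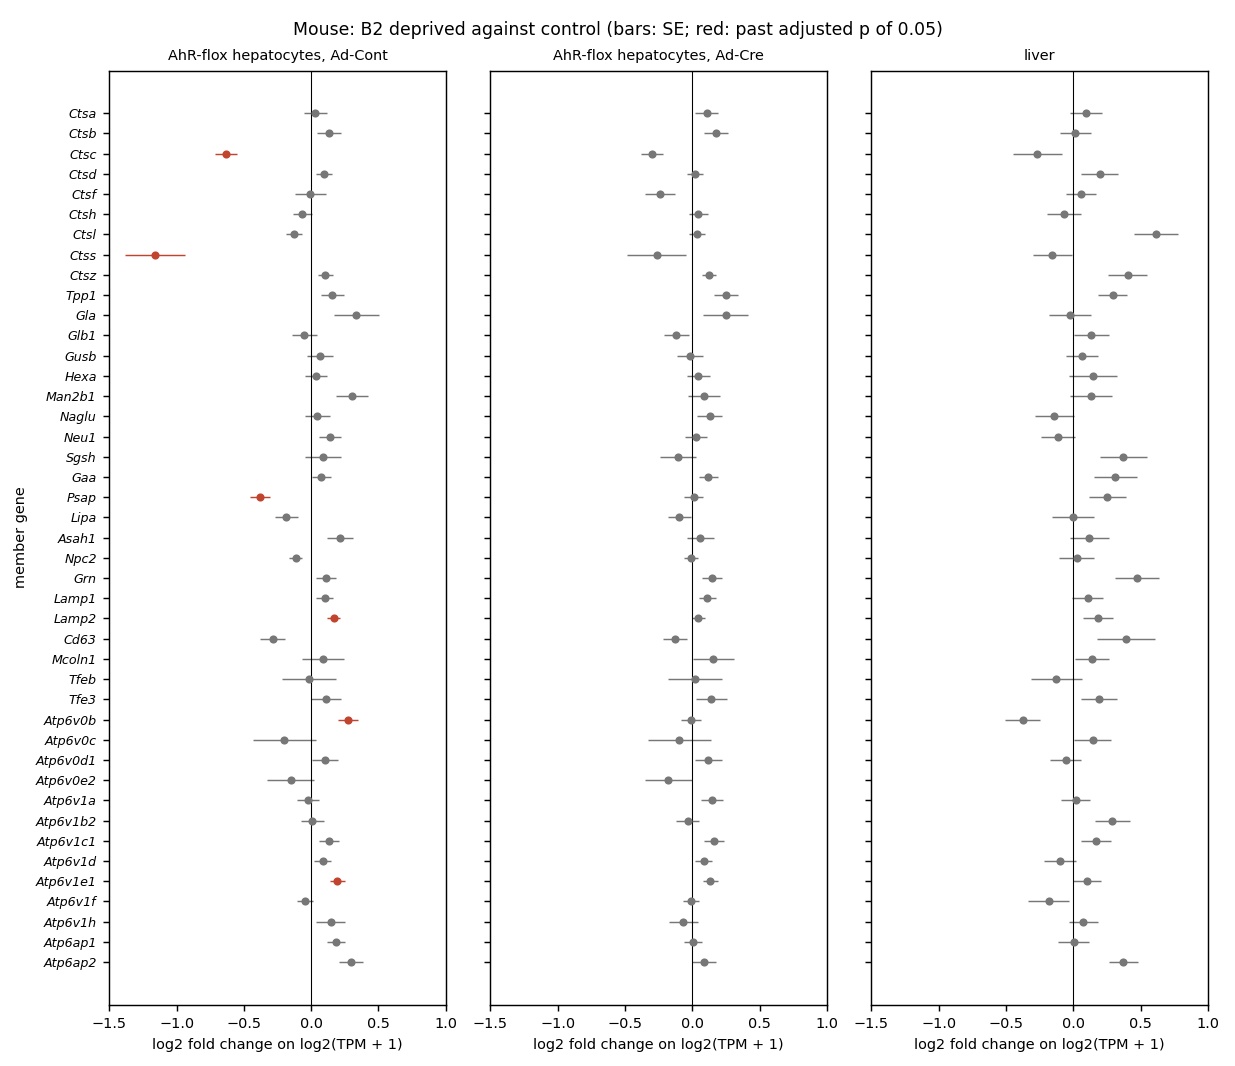
Log2 fold change on log2(TPM + 1) with SE (horizontal axes) of the mouse members (vertical axis), deprived against control, in AhR-flox hepatocytes with Ad-Cont or Ad-Cre and in liver. Red points passed an adjusted p of 0.05. There are 6 red points with Ad-Cont, between -1.16 (Ctss) and 0.28 (Atp6v0b), and 0 in the other panels.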

How the data were processed

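Human and mouse libraries were made with a 3′ end kit (QuantSeq), per the labels' protocols. In the headers the liver columns are named by sequencing run and diet, and lack the trimming mark that all other columns carry. The submitters' processing notes name STAR, Bowtie2 and HOMER and the builds hg38 and mm10, without versions or roles. The deposited tables hold TPM per gene made with HOMER, per the file headers. The sources used here give no strand setting or filters. All 8 tables were analysed separately. TPM values were whole multiples of 1 read, so whole reads were recovered for 100% of the values checked (tolerance 0.1). They were used for depth and for a voom alternative, and not for the main test.

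Genes with TPM of at least 1 in 3 libraries (4 in liver) were tested on log2(TPM + 1) with limma 3.58.1 in R 4.3.3, all groups of a table in 1 fit. P-values were adjusted by Benjamini-Hochberg over all genes, with a threshold of 0.05. The script was tested on simulated data. The members and gene lists were chosen with earlier results of these data known. Every member could be named: up to 8 highest and 8 lowest past the threshold were given per comparison, 3 and 3 for differences of effects, with TFEB, TFE3 and MCOLN1 wherever tested, and up to 2 and 2 of each further list. The further lists were other hydrolases, membrane proteins, pump subunits, delivery, nutrient sensing, autophagy and cell type markers. No enrichment test was run. Alternatives were pseudocount 0.1, no filter, TPM of at least 5, quantile and median scaling, only the groups compared, voom, a replicate block and leaving out each library. Same-numbered libraries did not deviate together (correlations from -0.108 to 0.187), so replicate numbers were not taken as pairs. Replicates were not duplicates of each other: the lowest chi-square per gene between libraries of a group was 1.99.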

Additional observations from a re-analysis of the deposited data

Results flagged for a closer look

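In mouse liver, 10 of 84 sets of 4 columns had 1 column flagged as apart from the others (Dixon's test at the 95% level). A column can be flagged at a small distance where the other values lie close together. Chance would give about 1 in 20 for independent sets. These sets are genes measured in the same columns, so the count cannot be judged against that share. In deficient livers Ctsc reached 12.663 TPM in 1 column, against 7.336 in the next and 6.543 at the other end. The lowest column was 18.431 TPM for Ctsf (next 21.261), 7.312 for Naglu (next 9.765), 9.006 for Neu1 (next 11.472) and 195.743 for Lamp2 (next 227.702). In control livers the highest column was 27.692 TPM for Tpp1 (next 24.856), 53.32 for Atp6v0d1 (next 47.275) and 33.335 for Atp6ap1 (next 30.931), and the lowest 15.5 for Hexa (next 22.517) and 0.839 for Sgsh (next 1.836).

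Effects differed between conditions, by the limma test of the difference, in 5 designs. Between days 12 and 3 the deprivation effect differed for 27 members, with ATP6V0E2 at 1.48, CTSA at 1.33, ATP6V1E1 at 1.19, GLB1 at -0.46, GUSB at -0.36 and PSAP at -0.27 on the log2 scale. With the IDO/TDO inhibitor it differed for 34 members, with LIPA at 0.64, MAN2B1 at 0.61, GLB1 at 0.37, ATP6V0E2 at -1.85, CTSA at -1.58 and ATP6V1E1 at -1.51. With the AhR inhibitor it differed for 18, with ATP6V0E2 at 0.83, NAGLU at 0.82, GAA at 0.63, CTSB at -1.06, CTSD at -0.65 and ATP6V0E1 at -0.62, and there the inhibitor and a batch of another date in the headers cannot be told apart. With the AhR guide it differed for 7, with CTSB at 0.38, ATP6V0E2 at -1.33, CTSA at -0.69 and NPC2 at -0.56. The Kyn effect differed with AhR inhibitor for 6, with GAA at -0.84, GRN at -0.62 and HEXA at -0.49.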

How the results depend on the processing

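Of the counts of members past the threshold, 439 recomputed values stayed within 1.5 times the count reported and 39 did not. Of the counts in 1 direction, 845 stayed within that range and 111 did not, 20 of these under median scaling and 47 on leaving out 1 library. Of the values of the highest and lowest members named per comparison, 3238 kept their direction and their side of the threshold. A further 185 kept only their direction, and 0 changed sign as called values. Members outside this set did change sign under other scalings, such as CTSD in EX3 (-0.15, adjusted p = 0.025 by limma after median scaling). Without a filter, the counts were 2 on day 3 in HepG2, 3 for Kyn with AhR inhibitor, 3 for the difference of the Kyn effects, 3 for deprivation in Ad-Cont hepatocytes and 0 for Ad-Cre against Ad-Cont in deprived hepatocytes. With TPM of at least 5 they were 1 for deprivation with the IDO/TDO inhibitor, 11 for the difference between guides and 2 for Ad-Cre against Ad-Cont in deprived hepatocytes. With voom these 3 were 3, 22 and 3, and deprivation with Ad-Cre and the difference between Ad-Cre and Ad-Cont were 1 each. With only the groups compared, the Ad-Cont count was 3 and that of Ad-Cre against Ad-Cont in deprived cells 0. The AhR inhibitor in Kyn-treated cells changed 10 members after quantile normalization and 11 after median scaling. The cause of these shifts was not tested. When 1 library was left out, counts ran from 2 to 3 on day 3, 3 to 6 for Kyn, 3 to 4 for Kyn with inhibitor, 2 to 5 for the difference of Kyn effects, 3 to 6 for Ad-Cont, 0 to 3 for Ad-Cre against Ad-Cont in deprived cells and 0 to 1 in liver. With the replicate block, 5 named calls did not pass, PSAP with the IDO/TDO inhibitor in deprived cells (0.15), GLA for Kyn with inhibitor (-0.44), ATP6V1F for the inhibitor in Kyn-treated cells (-0.43), Lamp2 with Ad-Cont (0.17) and Psap for Ad-Cre in deprived cells (0.36). The numbers are shared names only, and liver columns have none. Depth limits the members with the lowest TPM, such as MCOLN1 and MAN2B1, most.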
